A study of Mus musculus with 4 samples.

Results

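The integrated stress response, followed here through the mRNAs of 10 genes, was compared between LPS-treated mouse macrophages given Acly-E14 siRNA and those given control siRNA. The genes were taken by name as Atf4, which encodes the transcription factor at the centre of the response, and 9 of its known targets (Ddit3, Ddit4, Asns, Psat1, Phgdh, Shmt2, Trib3, Chac1 and Slc7a11). All 10 were among the 34745 gene IDs of the count table, and all 10 passed the filter on low counts that left 13108 genes for testing. The cells were bone marrow-derived macrophages, that is, macrophages grown in culture from C57BL/6 bone marrow, and RNA was sequenced from 2 libraries with Acly-E14 siRNA and 2 with control siRNA. Every library was from cells that had also received lipopolysaccharide (LPS), the bacterial outer membrane component that activates macrophages, so no library shows the unstimulated level. Acly encodes ATP citrate lyase, which makes cytosolic acetyl-CoA from citrate. The labels do not spell out E14 or give the dose or time of siRNA or LPS, and they are silent on whether replicate libraries derive from different cultures or mice. The p-values therefore measure only the spread between these libraries, which may be technical.

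In the integrated stress response, kinases that sense amino acid shortage, unfolded protein in the endoplasmic reticulum, viral RNA or haem deficiency phosphorylate the translation factor eIF2alpha. Bulk translation falls, while short upstream reading frames in the Atf4 mRNA let its own translation rise, and ATF4 protein then switches on genes for amino acid synthesis, amino acid import and the response's own shut-off. Much of the control of ATF4 is thus on translation, which counts of mRNA do not measure.

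ATF4 forms dimers with C/EBP proteins that bind composite C/EBP-ATF elements, so the promoter windows of the members were searched for the letters TGATGNAA, the core shared by many such elements, on both strands. The windows ran from 250 bases before to 50 after the annotated start (RefSeq, GRCm38.p6), and all 10 genes had at least 1, Psat1 having 2. The core was held by 4 of the 10, against 3.97% of all 32851 windows of that length, and none of the 10 held TGACGTCA, the palindromic cAMP response element, which 1.79% of all windows held. The 10 were taken as Atf4 and its known targets, so the comparison with all windows is no test of the core. The 4 windows are shown because they hold the core. Of their genes, 3 were called lower and 1 higher with Acly-E14 siRNA (edgeR adjusted p under 0.05), beside 15.9% and 17.3% of all tested genes. Of the members without the core, Atf4 was lower, Ddit4 and Shmt2 were higher, and Ddit3, Psat1 and Phgdh were not called. The calls of Asns, Chac1 and Slc7a11 were each lost on leaving out certain single libraries, as given below. Capitals mark the core, read 5′ to 3′ on the strand of the gene, and a core on the opposite strand appears as its reverse complement. The windows are chr2:152344011-152344310 (minus strand) for Trib3, chr2:119350992-119351291 (plus) for Chac1, chr6:7693160-7693459 (minus) for Asns and chr3:50443564-50443863 (minus) for Slc7a11.
Trib3: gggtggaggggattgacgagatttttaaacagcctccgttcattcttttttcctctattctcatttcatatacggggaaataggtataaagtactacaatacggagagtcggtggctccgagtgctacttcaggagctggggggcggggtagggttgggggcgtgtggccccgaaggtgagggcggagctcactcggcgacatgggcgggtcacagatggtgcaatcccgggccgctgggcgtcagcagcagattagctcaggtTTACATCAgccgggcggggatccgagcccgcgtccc
Chac1: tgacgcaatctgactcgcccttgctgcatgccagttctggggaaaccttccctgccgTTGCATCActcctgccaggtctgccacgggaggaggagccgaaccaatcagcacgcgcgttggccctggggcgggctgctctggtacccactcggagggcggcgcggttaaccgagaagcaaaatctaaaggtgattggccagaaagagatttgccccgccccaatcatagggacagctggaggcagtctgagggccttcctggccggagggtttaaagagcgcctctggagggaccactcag
Asns: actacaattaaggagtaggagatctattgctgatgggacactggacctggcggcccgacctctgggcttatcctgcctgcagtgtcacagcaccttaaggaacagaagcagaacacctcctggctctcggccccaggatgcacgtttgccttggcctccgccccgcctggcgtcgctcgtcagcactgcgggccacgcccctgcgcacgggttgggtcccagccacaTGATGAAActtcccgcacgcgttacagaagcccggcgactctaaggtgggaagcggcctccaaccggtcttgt
Slc7a11: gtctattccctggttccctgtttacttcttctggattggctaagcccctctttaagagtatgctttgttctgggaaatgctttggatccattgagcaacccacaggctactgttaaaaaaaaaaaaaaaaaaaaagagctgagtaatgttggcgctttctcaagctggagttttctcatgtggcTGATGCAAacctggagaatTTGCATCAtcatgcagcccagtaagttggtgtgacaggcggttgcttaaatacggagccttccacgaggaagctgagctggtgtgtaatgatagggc

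The core in Asns began 23 bases before the start, on the gene strand. In Chac1 it began 193 bases before the start, on the opposite strand, and in Trib3 15 bases after it, also on the opposite strand. Slc7a11 held the core once on each strand, beginning 66 and 47 bases before the start, and 0.07% of all windows held it at least 2 times. These positions refer to the RefSeq starts. By the GENCODE gene coordinates given below, the Trib3 core lies before the start and the Asns core after it. A match of these letters is a description of the sequence and does not show binding, and enhancers and introns were not searched.

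**Figure D1:**
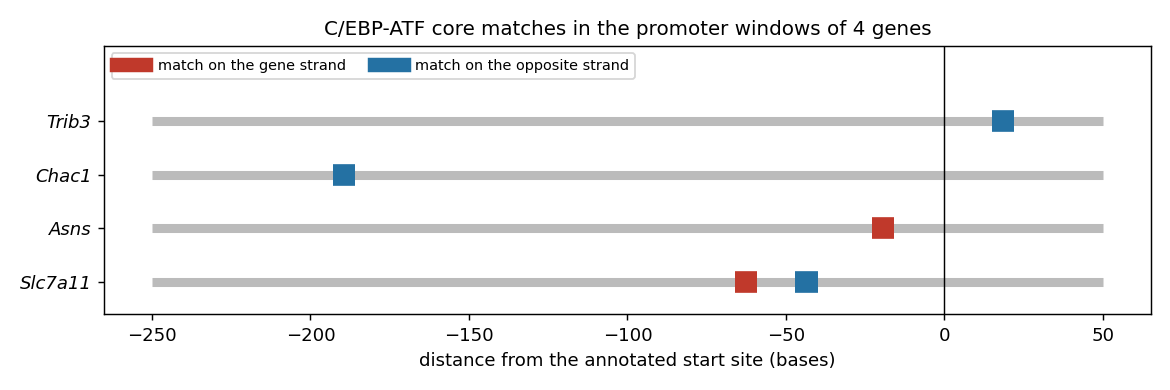
Position of the C/EBP-ATF core in the promoter windows of Trib3, Chac1, Asns and Slc7a11, in bases from the RefSeq start site. Matches on the gene strand are in red and those on the opposite strand in blue. Slc7a11 has a match on each strand, and the other 3 genes have 1 match each.

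Each library held between 21023197 and 21837806 counts. Acly, the targeted gene, had 118 and 127 CPM (counts scaled by library total and TMM factor) with Acly-E14 siRNA and 158 and 154 CPM with control siRNA, a log2 change of -0.35 (SE 0.060, edgeR adjusted p = 0.0086). Leaving out control library 1 raised the adjusted p to 0.0583. All 14 macrophage markers were detected, the lowest at 17.5 CPM in the control mean. Among them 4 were called higher and 7 lower, where 17.3% of all tested genes were higher and 15.9% lower. Cd68, which encodes a lysosomal glycoprotein of macrophages, was at 1187 and 1158 CPM with Acly-E14 siRNA, against 2028 and 1726 CPM with control siRNA. Of 15 fibroblast and stroma markers, 14 were higher with Acly-E14 siRNA, beside 17.3% of all tested genes, and none was at 0 in either group. Their summed level was 3750 and 4610 CPM with Acly-E14 siRNA and 1110 and 1670 CPM with control siRNA. How far cells of that kind contributed to the values below was not tested. In bulk RNA, fewer cells of a type and less RNA per cell cannot be told apart.

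The 10 genes did not move as a block. With Acly-E14 siRNA, Trib3, Chac1, Asns and Atf4 fell, Ddit4, Shmt2 and Slc7a11 rose, and Ddit3, Psat1 and Phgdh did not pass the threshold. Thus 7 of 10 were called at an edgeR adjusted p under 0.05, where 33.2% of all tested genes were called (17.3% higher and 15.9% lower). The median log2 change of the 10 was -0.12, against 0.00268 over all tested genes. The libraries of the groups did not overlap for 8 of the 10, against 70.6% of tested genes. The members were chosen with earlier results of these data known. Each had a higher mean level per gene length than at least 70.7% of tested genes. The shares over all tested genes are thus context and no test of the 10 as a set. The calls of Trib3, Ddit4 and Shmt2 held in each of 12 alternative settings, while those of Atf4, Asns, Chac1 and Slc7a11 were each lost on leaving out certain single libraries. Among the 12, the setting with an adjusted p under 0.1 was the main fit at a looser threshold, where no call could be lost. The number of members called was 4 without Acly-E14 siRNA library 2 and 4 without control library 1.

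**Figure D2:**
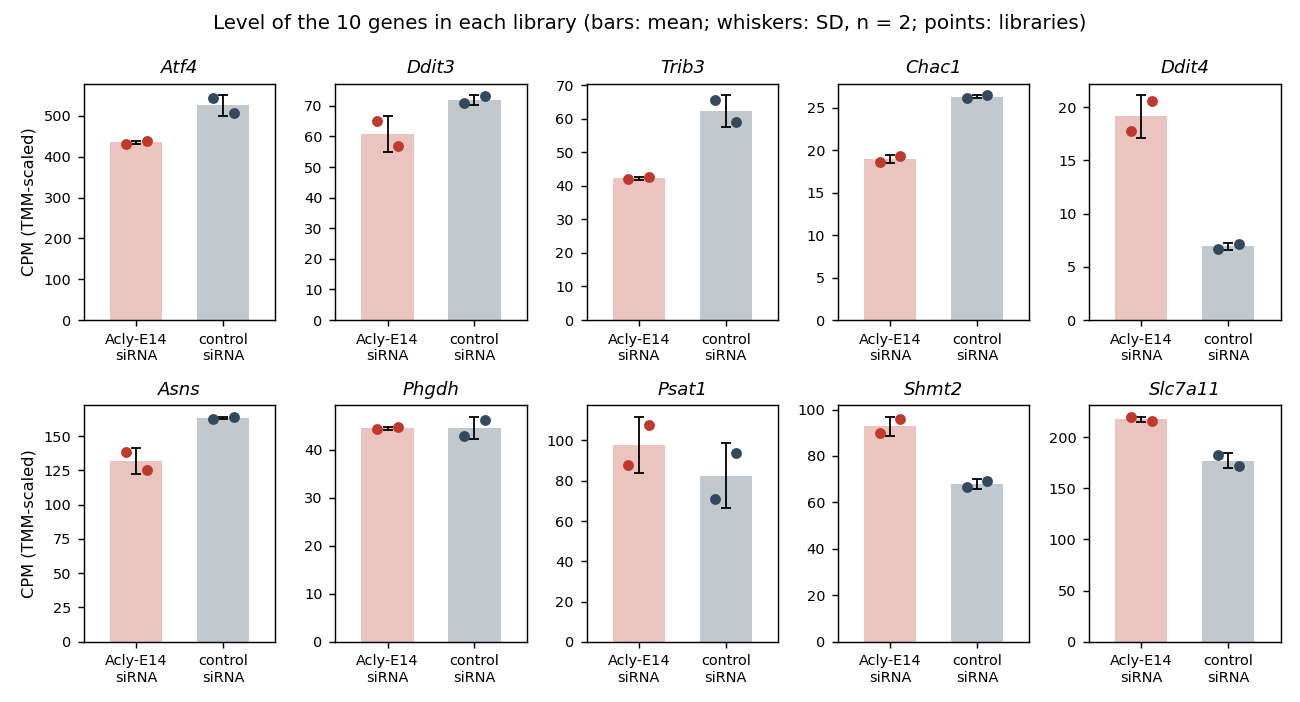
TMM-scaled CPM of the 10 genes in each library, with Acly-E14 siRNA in red and control siRNA in dark blue; points are libraries, bars their mean and whiskers the SD (n = 2). Trib3 lies at 41.9 and 42.6 CPM with Acly-E14 siRNA, below both controls, and Ddit4 at 17.7 and 20.6 CPM, above both controls.

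Atf4 itself (chromosome 15, 80255184 to 80257541, plus strand, mm10) had 432 and 438 CPM with Acly-E14 siRNA, against 544 and 508 CPM with control siRNA. Both Acly-E14 siRNA libraries lay below both controls. The level averaged 435 ± 4.59 CPM with Acly-E14 siRNA and 526 ± 25.4 CPM with control siRNA (SD, n = 2 each), 82.7% of the control level. The log2 change was -0.27 (SE 0.057, edgeR adjusted p = 0.0162). With Acly-E14 siRNA library 1, Acly-E14 siRNA library 2 or control library 1 removed, it no longer passed (adjusted p = 0.0703, 0.0643 and 0.0971).

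Ddit3 encodes CHOP, the transcription factor that acts beside and downstream of ATF4 and promotes cell death under lasting stress. It lies on chromosome 10 from 127290774 to 127296288 (plus strand). Its level was 64.9 and 56.7 CPM with Acly-E14 siRNA, against 70.8 and 73.1 CPM with control siRNA, so the groups did not overlap. The log2 change was -0.24 (SE 0.082) and did not pass the threshold in edgeR (adjusted p = 0.0690). It passed in DESeq2 (adjusted p = 0.0401) and without Acly-E14 siRNA library 1 (edgeR adjusted p = 0.0484). Ddit3 shares 68 exon bases with Mars on the opposite strand and 13 with Gm4189. It also shares 105 with a second annotated Ddit3 entry on its own strand, which strand cannot separate. Whether the counting used strand is not given in the sources used here.

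Trib3 and Chac1, both known targets of ATF4 and CHOP, had the largest falls of the 10. Trib3 (chromosome 2, 152337422 to 152344032, minus strand) encodes a pseudokinase that binds ATF4 and CHOP and limits their activity. It was at 41.9 and 42.6 CPM with Acly-E14 siRNA and at 65.7 and 58.9 CPM with control siRNA. Every Acly-E14 siRNA library was below every control library, at 67.8% of the control level (log2 -0.56, SE 0.078, edgeR adjusted p = 0.00472). Over the 12 alternatives the log2 change lay between -0.64 and -0.44, and the highest adjusted p was 0.0285. By size of log2 change Trib3 ranked 3432 of 13108 tested genes.

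Chac1 (chromosome 2, 119351229 to 119354381, plus strand) encodes an enzyme that breaks down glutathione and is known as a target of the ATF4 and CHOP branch. Its level was 18.6 and 19.3 CPM with Acly-E14 siRNA and 26.1 and 26.4 CPM with control siRNA, with no overlap. The mean was 18.9 ± 0.493 CPM with Acly-E14 siRNA and 26.3 ± 0.210 CPM with control siRNA (SD, n = 2 each). This is 72.0% of the control level (log2 -0.47, SE 0.085, edgeR adjusted p = 0.0102). The adjusted p was 0.0512 without Acly-E14 siRNA library 1 and 0.0513 without control library 1.

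Ddit4 went the other way and had the largest change of the 10. It encodes REDD1, which restrains the growth kinase mTORC1 and is known to respond to hypoxia and glucocorticoids as well as to ATF4. Ddit4 (chromosome 10, 59949669 to 59951834, minus strand) was at 17.7 and 20.6 CPM with Acly-E14 siRNA and at 6.66 and 7.16 CPM with control siRNA, from 387 and 450 counts against 134 and 153 counts. Each Acly-E14 siRNA library held more than either control, and the gene rose 2.77-fold (log2 1.47, SE 0.13, edgeR adjusted p = 0.00155). It ranked 691 of 13108 by size of log2 change. The alternatives gave log2 changes from 1.35 to 1.57, with a highest adjusted p of 0.0174.

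**Figure D3:**
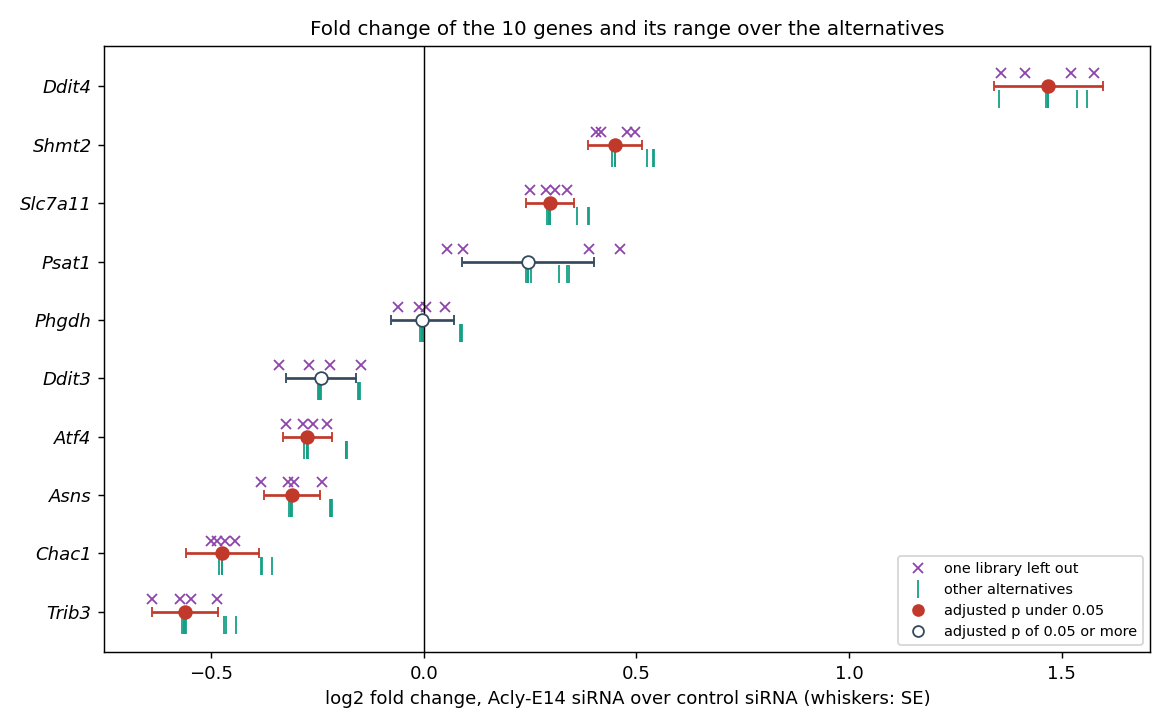
Log2 fold change of the 10 genes, Acly-E14 siRNA over control siRNA, with whiskers for the SE; filled red points had an edgeR adjusted p under 0.05. Purple crosses show the value with 1 library left out and green ticks the other alternatives: Trib3, Chac1, Asns, Atf4 and Ddit3 stay below 0 in each, Ddit4, Shmt2, Slc7a11 and Psat1 stay above 0, and Phgdh falls on both sides.

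Among the targets for amino acid synthesis, Asns, which encodes asparagine synthetase, was lower. Asns (chromosome 6, 7675169 to 7693254, minus strand) was at 138 and 125 CPM with Acly-E14 siRNA, against 163 and 164 CPM with control siRNA. The mean was 132 ± 9.35 CPM with Acly-E14 siRNA and 163 ± 0.853 CPM with control siRNA (SD, n = 2 each), which is 80.7% of the control level. The controls were close to each other and both Acly-E14 siRNA libraries were below them (log2 -0.31, SE 0.066, edgeR adjusted p = 0.0177). Leaving out Acly-E14 siRNA library 2 or control library 1 gave an adjusted p of 0.0839 in each case, and leaving out control library 2 gave 0.0753.

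The serine pathway members were Phgdh, Psat1 and Shmt2, of which only Shmt2 was called. Serine is made from a glycolytic intermediate in steps catalysed by PHGDH, PSAT1 and PSPH, and mitochondrial SHMT2 then converts it to glycine and passes a carbon unit to folate. Phgdh (chromosome 3, 98313170 to 98339990, minus strand), the entry step, was at 44.3 and 44.7 CPM with Acly-E14 siRNA and at 42.9 and 46.3 CPM with control siRNA. The Acly-E14 siRNA libraries lay between the controls (log2 -0.0029, SE 0.073, edgeR adjusted p = 0.979). The sign of this value turned under library totals alone (log2 0.088) and on leaving out certain libraries, and no setting called it. Phgdh counts are uncertain, because 14 processed pseudogenes in the annotation match its transcripts over at least 1000 bases at 90.6% to 98.7% identity, and how the authors' counting placed shared reads is not given in the sources used here.

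Psat1 (chromosome 19, 15904678 to 15947337, minus strand), the aminotransferase of the next step, was at 87.9 and 108 CPM with Acly-E14 siRNA, against 71.0 and 93.9 CPM with control siRNA. Here the groups overlapped (log2 0.25, SE 0.15, edgeR adjusted p = 0.270), and the log2 change lay between 0.054 and 0.46 with 1 library left out. A processed pseudogene, Gm12611, matches Psat1 over 1056 bases at 91.0% identity, so its counts are uncertain too. Psph, the phosphatase that completes the pathway, was at 11.8 and 11.1 CPM with Acly-E14 siRNA and at 12.4 and 15.4 CPM with control siRNA (log2 -0.28, SE 0.14, adjusted p = 0.176).

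Shmt2 (chromosome 10, 127517123 to 127522444, minus strand) rose. It was at 89.9 and 95.7 CPM with Acly-E14 siRNA and at 66.6 and 69.3 CPM with control siRNA, with both Acly-E14 siRNA libraries above both controls. The rise was 1.37-fold (log2 0.45, SE 0.064, edgeR adjusted p = 0.00496), and the alternatives gave log2 changes from 0.40 to 0.54 with a highest adjusted p of 0.0406. Shmt2 shares 32 exon bases with Ndufa4l2 on the opposite strand.

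Slc7a11 is the member for import. It encodes xCT, the cystine-glutamate exchanger that supplies cysteine for glutathione, and is known as a target of both ATF4 and NRF2. Slc7a11 (chromosome 3, 49892526 to 50443614, minus strand) was at 219 and 216 CPM with Acly-E14 siRNA, against 182 and 172 CPM with control siRNA. The Acly-E14 siRNA libraries were close together and above both controls, 1.23-fold (log2 0.30, SE 0.057, edgeR adjusted p = 0.0123). With Acly-E14 siRNA library 1, Acly-E14 siRNA library 2 or control library 2 left out, the adjusted p was 0.0517, 0.0510 or 0.0702. Annotated Slc7a11 transcripts held stretches at least 90% identical to other genes, the longest of them 585 bases at 92.5% identity to the alpha-tubulin gene Tuba1b. Tuba1b and the matching Tuba1c and Tuba1a were themselves higher (log2 0.59, 0.55 and 1.37, edgeR adjusted p = 0.00204, 0.00215 and 0.0145). Of other matching genes, Pikfyve had more counts in both Acly-E14 siRNA libraries than in either control, and Lpl, Cyb5r4 and Rspry1 had fewer. Apart from Tuba1b, these matching genes were named after their values were seen. The effect of shared reads on Slc7a11 was not tested.

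Levels were also compared between the genes per length, as FPKM (fragments scaled to gene length and library total), with the gene lengths behind the deposited table. Atf4 stood far above its targets, at 260 FPKM with Acly-E14 siRNA and 295 FPKM with control siRNA, higher than 99.0% of tested genes. With control siRNA the order below it was Asns (42.2 FPKM), Ddit3 (30.3), Shmt2 (28.5), Trib3 (19.0), Chac1 (15.5), Phgdh (15.1), Psat1 (11.5), Slc7a11 (10.9) and Ddit4 (3.97). Of these neighbours, Chac1 and Phgdh overlapped between libraries, as did Psat1 and Slc7a11. With Acly-E14 siRNA, Shmt2 (41.6 FPKM) stood above Asns (36.2), whose libraries it did not overlap. Ddit4, lowest in both groups, was at 11.7 FPKM there and overlapped Chac1 at 11.9. The length behind the table was that of the merged exons in the annotation used here for Chac1 (1637 bases) but not for the other 9 genes, for Psat1 6958 against 4254 bases, so the order rests on the lengths chosen.

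The rest of the pathway was described from lists of known genes. Upstream of ATF4, of 15 tested genes for eIF2alpha kinases, eIF2 and eIF2B subunits and the mitochondrial relay, 1 was higher and 1 lower, where 33.2% of all tested genes were called, and the median log2 change was -0.064. The kinase genes Eif2ak2 (PKR, which senses double-stranded RNA), Eif2ak3 (PERK, of the endoplasmic reticulum) and Eif2ak4 (GCN2, which senses uncharged tRNA) had log2 changes of -0.11, 0.33 and -0.17 and were not called (edgeR adjusted p = 0.284, 0.143 and 0.300). Eif2ak1, which encodes the haem-regulated kinase HRI, was lower (log2 -0.24, SE 0.067, adjusted p = 0.0383), and Eif2s3x, an eIF2 gamma subunit gene, was higher (log2 0.35, adjusted p = 0.0398). Neither passed once any 1 of the 4 libraries was removed, with adjusted p between 0.0821 and 0.203 for Eif2ak1 and between 0.0503 and 0.174 for Eif2s3x, and Eif2ak1 did not pass with library totals either (0.137). Eif2s1, the gene of eIF2alpha itself, had a log2 change of -0.15 (adjusted p = 0.136).

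The phosphatase that ends the response and the partners of ATF4 split evenly, with 3 higher, 3 lower and 5 not called of 11 tested (median log2 change 0.088). Over all tested genes 17.3% were higher and 15.9% lower. Cebpd, which encodes C/EBP-delta, was at 33.7 and 44.0 CPM with Acly-E14 siRNA and at 14.1 and 18.1 CPM with control siRNA, a rise of 2.41-fold (log2 1.27, SE 0.18, edgeR adjusted p = 0.00468). Cebpg, whose product is a main dimer partner of ATF4, fell (log2 -0.33, SE 0.065, adjusted p = 0.0132), a call lost without Acly-E14 siRNA library 2 (0.0841) or control library 1 (0.0732). Cebpb did not pass (log2 0.090, adjusted p = 0.247), although it did with library totals as the scaling (log2 0.18, 0.0466). Atf5, an ATF4 target and relative, rose 1.21-fold (adjusted p = 0.0306), but not without Acly-E14 siRNA library 1 (0.145), control library 1 (0.136) or control library 2 (0.0930). Atf3, a further bZIP factor of the response, was at 542 and 423 CPM with Acly-E14 siRNA and at 657 and 584 CPM with control siRNA. The difference did not pass (log2 -0.36, SE 0.13, adjusted p = 0.0739), although it did without Acly-E14 siRNA library 1 (0.0173). Ppp1r15a encodes GADD34, the inducible subunit that directs phosphatase to eIF2alpha. It had 153 and 89.7 CPM with Acly-E14 siRNA, which enclosed the controls at 125 and 104 CPM. Of the phosphatase catalytic genes, Ppp1cb was lower (log2 -0.56, adjusted p = 0.00336) and Ppp1cc higher (log2 0.82, adjusted p = 0.0160). Ppp1cc did not pass with any 1 library removed (0.0523 to 0.0902).

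**Figure D4:**
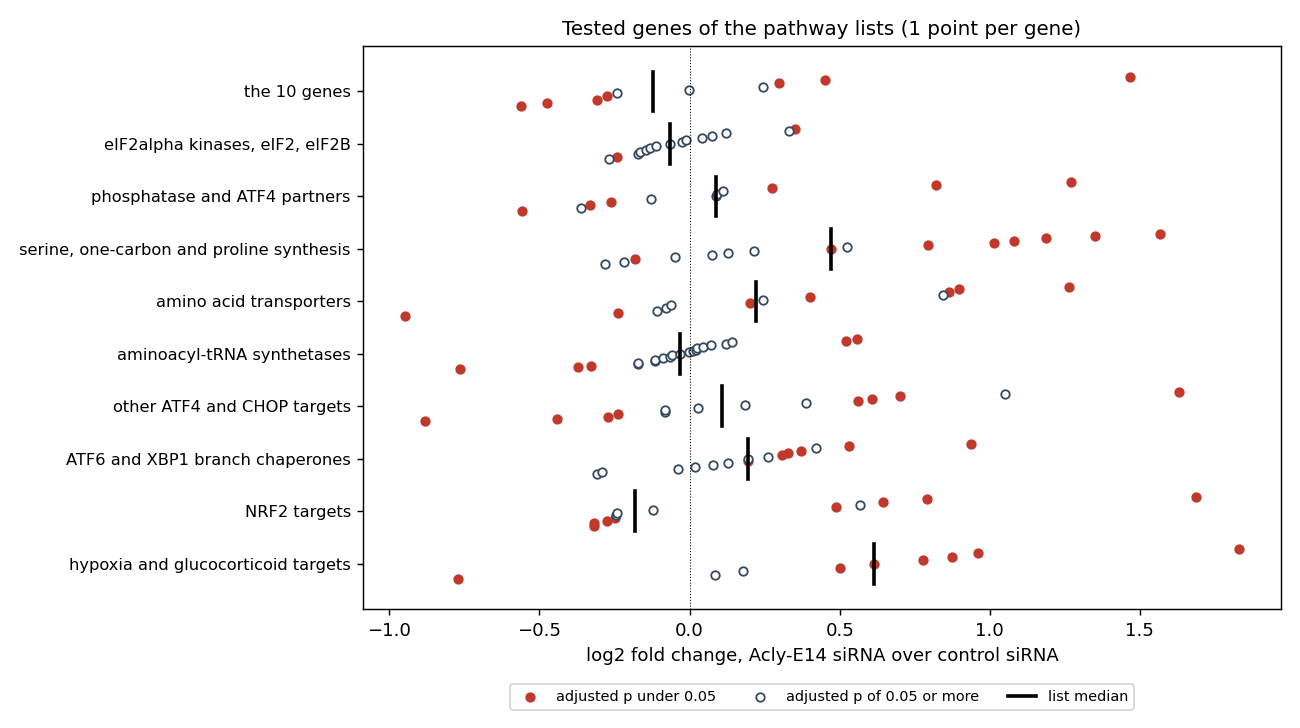
Log2 fold change, Acly-E14 siRNA over control siRNA, of each tested gene of the pathway lists, with filled red points for an edgeR adjusted p under 0.05 and a black bar at the list median. The 10 genes spread over both sides of 0, while the median lies at 0.47 for serine, one-carbon and proline synthesis and at -0.032 for the aminoacyl-tRNA synthetases.

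Of 15 tested genes of serine, one-carbon and proline synthesis, 7 rose and 1 fell, while 7 did not pass, beside 17.3% higher and 15.9% lower over all tested genes. The median log2 change was 0.47. In mitochondria, Aldh1l2, which oxidises formyl-folate, was at 23.0 and 26.3 CPM with Acly-E14 siRNA and at 9.39 and 12.3 CPM with control siRNA (2.28-fold, log2 SE 0.15, edgeR adjusted p = 0.00383). Mthfd1l, which releases formate, rose 2.12-fold (adjusted p = 0.0114), a call lost without Acly-E14 siRNA library 2 (0.0528) or control library 1 (0.0584). Mthfd2, the ATF4 target that follows SHMT2, was at 189 and 190 CPM with Acly-E14 siRNA, against 214 and 215 CPM with control siRNA (log2 -0.18, SE 0.050, adjusted p = 0.0368). It failed the threshold with each library removed in turn (0.131 to 0.138) and with library totals alone (0.194). In the cytosol, Mthfd1 was at 14.6 and 14.3 CPM with Acly-E14 siRNA and at 7.10 and 7.20 CPM with control siRNA (2.02-fold, adjusted p = 0.00260). Pycr1, which completes proline synthesis and lay at 2.88 and 2.83 CPM with Acly-E14 siRNA against 0.745 and 1.17 CPM with control siRNA, rose 2.96-fold (adjusted p = 0.0125). Its call was lost without Acly-E14 siRNA library 1 (0.0592), Acly-E14 siRNA library 2 (0.0664) or control library 1 (0.0533). The fibroblast and stroma markers, 14 of 15 of which were higher, were in the same libraries. What part cells of that kind had in the values of this list was not tested.

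**Figure D5:**
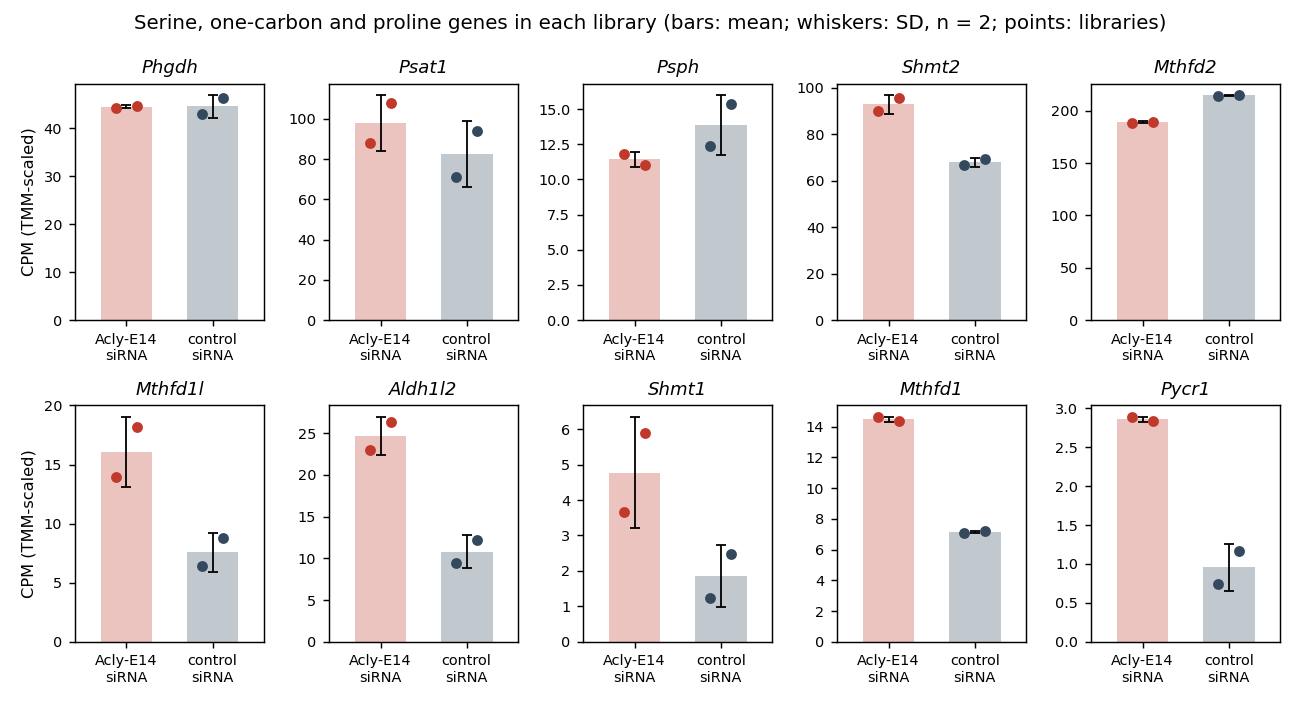
TMM-scaled CPM of serine, one-carbon and proline genes in each library, with Acly-E14 siRNA in red and control siRNA in dark blue; points are libraries, bars their mean and whiskers the SD (n = 2). Mthfd2 lies at 189 and 190 CPM with Acly-E14 siRNA, below both controls, while Shmt2, Aldh1l2 and Mthfd1 lie above both controls. Shmt1, the cytosolic form of SHMT2, was drawn after its values were seen.

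Amino acid transporters also divided. Of 12 tested, 5 rose, 2 fell and 5 did not pass, beside 17.3% higher and 15.9% lower over all tested genes. The median log2 change was 0.22. Slc43a1, among those that rose and named after its values were seen, had only 10 and 12 counts with control siRNA. Slc1a5, the neutral amino acid carrier that takes up glutamine, was at 54.1 and 55.5 CPM with Acly-E14 siRNA, against 27.4 and 32.8 CPM with control siRNA (1.82-fold, edgeR adjusted p = 0.00304). Slc7a6 rose 1.86-fold (adjusted p = 0.00546) and Slc7a5, the large neutral amino acid exchanger LAT1, rose 1.32-fold (adjusted p = 0.00720). Slc3a2, the heavy chain shared by LAT1 and xCT, rose 1.15-fold (adjusted p = 0.0478), which did not pass with any single library removed (0.0766 to 0.205). Slc38a1, a sodium-coupled neutral amino acid carrier, fell to 162 and 150 CPM with Acly-E14 siRNA, against 300 and 301 CPM with control siRNA (log2 -0.95, SE 0.060, adjusted p = 0.000842).

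The aminoacyl-tRNA synthetases, which load amino acids onto tRNA and many of which ATF4 is known to drive, changed in both directions. Of 21 tested, 2 rose, 3 fell and 16 did not pass, against 33.2% of all tested genes called, and the median log2 change was -0.032. Aars, for alanine, was at 321 and 302 CPM with Acly-E14 siRNA, against 541 and 519 CPM with control siRNA (log2 -0.77, SE 0.059, edgeR adjusted p = 0.00111). Rars, for arginine, fell too (log2 -0.37, adjusted p = 0.00891, and 0.0537 without control library 1). Iars, for isoleucine, and Vars, for valine, rose 1.47-fold and 1.44-fold (adjusted p = 0.00654 and 0.00534).

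Of 14 further ATF4 and CHOP targets tested, 4 rose, 4 fell and 6 did not pass (median log2 change 0.11). The shares over all tested genes were 17.3% higher and 15.9% lower. Gdf15, a stress-induced hormone of the TGF-beta family, was at 91.7 and 79.7 CPM with Acly-E14 siRNA, against 168 and 148 CPM with control siRNA (log2 -0.88, SE 0.095, edgeR adjusted p = 0.00248). Sqstm1, which encodes the autophagy adaptor p62, fell by 0.44 on the log2 scale (adjusted p = 0.00473). Sesn2, a restraint on mTORC1 like Ddit4, fell by 0.27 on the log2 scale (adjusted p = 0.0203), a call lost without Acly-E14 siRNA library 2 (0.121), control library 1 (0.0765) or control library 2 (0.0852) and with library totals alone (0.0645) or limma (0.0601). In contrast, Stc2, a secreted glycoprotein gene, was at 5.49 and 7.35 CPM with Acly-E14 siRNA and at 1.84 and 2.29 CPM with control siRNA (3.10-fold, adjusted p = 0.00560), and Ero1l, the oxidase that drives disulphide formation, rose 1.52-fold (adjusted p = 0.00230).

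Lists for other pathways that touch the members gave further context. Among chaperones of the ATF6 and XBP1 branches of the unfolded protein response, 6 of 15 tested were higher and 0 lower by edgeR. The median log2 change was 0.20, and over all tested genes 17.3% were higher and 15.9% lower. At an unadjusted p under 0.05 the number of chaperones lower was 1 (Dnajb9, log2 -0.31, adjusted p = 0.110, named after its values were seen). The share of all tested genes at that unadjusted threshold was not computed. By DESeq2 at an adjusted p under 0.05 the number of chaperones lower was 0, where 2278 of 13108 tested genes were lower. Pdia4 was at 87.6 and 96.5 CPM with Acly-E14 siRNA and at 43.4 and 52.8 CPM with control siRNA (1.91-fold, adjusted p = 0.00280). Hspa5, which encodes the central chaperone BiP, was at 668 and 901 CPM with Acly-E14 siRNA and at 963 and 960 CPM with control siRNA, and was not called (log2 -0.29, SE 0.14, adjusted p = 0.149), but was without Acly-E14 siRNA library 2 (log2 -0.53, 0.0120). Hyou1, Sdf2l1 and Xbp1 had log2 changes of 0.37, 0.53 and 0.31 (adjusted p = 0.00802, 0.0111 and 0.0208). These 3 calls were each lost without Acly-E14 siRNA library 2 (0.0569, 0.0639 and 0.120). They were lost too without control library 1 for Hyou1 (0.0514) and Xbp1 (0.107) and without control library 2 for Sdf2l1 (0.0509).

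For Slc7a11, the NRF2 targets are the other relevant list. Of 12 tested, 4 were higher and 4 lower, where 17.3% of all tested genes were higher and 15.9% lower. The median log2 change was -0.18. Nqo1, a quinone reductase, was at 24.4 and 28.9 CPM with Acly-E14 siRNA, against 8.69 and 7.86 CPM with control siRNA (3.22-fold, edgeR adjusted p = 0.00106), and Srxn1 (sulfiredoxin) and the haem transporter gene Slc48a1 rose 1.56-fold and 1.40-fold (adjusted p = 0.00891 and 0.00720). Hmox1, which encodes haem oxygenase, had a log2 change of -0.32 (adjusted p = 0.0110, and 0.0570 without Acly-E14 siRNA library 1 or 0.0648 without control library 1), and Prdx1, a peroxiredoxin gene, of -0.32 (adjusted p = 0.00730).

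For Ddit4, 6 of 9 tested hypoxia and glucocorticoid targets were higher and 1 lower, beside 17.3% higher and 15.9% lower over all tested genes. The list median was a log2 change of 0.62. Adm, the hypoxia-responsive gene for adrenomedullin, was at 12.8 and 13.1 CPM with Acly-E14 siRNA, against 3.48 and 3.79 CPM with control siRNA (3.55-fold, edgeR adjusted p = 0.00104). Vegfa rose 1.71-fold (adjusted p = 0.0117, and 0.0534 without Acly-E14 siRNA library 2). Per1, a clock gene that glucocorticoids also induce, rose 1.95-fold (adjusted p = 0.00257). Tsc22d3, which encodes the glucocorticoid-induced leucine zipper GILZ, had a log2 change of -0.77 (adjusted p = 0.0119, and 0.0635 without control library 1). The remaining genes called higher were the hypoxia targets Egln3, Bnip3 and Pdk1 (log2 0.87, 0.62 and 0.50, edgeR adjusted p = 0.0157, 0.0180 and 0.0209). Not called were the hypoxia target Slc2a1 (log2 0.084, adjusted p = 0.290) and the glucocorticoid target Fkbp5 (log2 0.18, adjusted p = 0.237). These further genes were named after their values were seen. The 14 of 15 higher fibroblast and stroma markers were in the same libraries, and their part in the rises was not tested.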

How the data were processed

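RNA was measured in 4 libraries. Counts per gene, raw per the file headers, and FPKM values computed by the authors were deposited for 34745 Ensembl IDs, of which 34267 matched a symbol. HISAT2, StringTie 1.3.0, edgeR and mm10 are named in the submitters' processing notes without roles. The protocols name both a total RNA kit and mRNA capture beads. The sources used here give neither the counting program nor its use of strand. A deposited FPKM column without a replicate number (1 column) was left aside.

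All genes passing filterByExpr (minimum count 10) were fitted in edgeR 4.0.16 (R 4.3.3) with TMM factors and the quasi-likelihood F test, group only, and p-values were Benjamini-Hochberg adjusted over all 13108 tested genes. SEs are those implied by F. FPKM were recomputed from the counts with the lengths that the deposited FPKM values imply. The smallest exact two-sided permutation p for 2 libraries against 2 is 0.333. The smaller p-values given here rest on the fitted model, which shares information on variance across genes. Near-identical copies were sought with blastn 2.17.0 in GENCODE M21 transcripts (at least 90% identity over 100 bases).

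Members and lists were chosen with earlier results of these data known. Named genes are the members, Acly, the 4 genes of smallest p in each list and 15 fixed genes. Alternatives were a replicate block, leaving out each library, RLE factors, library totals, DESeq2 1.42.0, no filter, limma 3.58.1 on log2(FPKM + 1) and log2(FPKM + 0.1), and an adjusted p under 0.1.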

Additional observations from a re-analysis of the deposited data

How the results depend on the processing

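With 2 libraries per group, single libraries decided several calls. Across all genes the number called was 4354, and 2088 to 3215 with 1 library left out (2864 without Acly-E14 siRNA library 1, 2088 without its library 2, 2157 without control library 1). For the 10 genes it was 7, and 4 to 5 with 1 library left out. Scaling moved the split of all calls: the share of calls that were higher was 52.0% with TMM factors and 65.8% with library totals alone or limma on FPKM, while the members stayed at 3 higher and 4 lower in each of these. Phgdh, never called, had log2 changes of -0.061 to 0.051 with 1 library left out, 0.088 with library totals, and 0.084 and 0.089 with limma. Ppp1r15a, also never called, ranged from -0.35 to 0.42 with 1 library left out. The cause of these shifts was not tested. Of 120 values of the members under the alternatives, 11 lost a call, 4 gained one and 5 turned sign. The 120 include the values of the main fit at an adjusted p under 0.1, where a call can only be gained. The replicate numbers are not stated to pair the libraries, whose same-numbered deviations correlated at 0.136 over genes. With the replicate number as a block, 4896 genes and 8 members were called, the added one being Psat1 (log2 0.25, edgeR adjusted p = 0.0222), and the block also called Atf3 (0.00676). The least counted member, Ddit4, had at least 134 counts in each library.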

Other observations

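Immediate early genes, which are induced quickly and without new protein synthesis, were the remaining list. Of 12 tested, 4 rose, 1 fell and 7 did not pass, where 33.2% of all tested genes were called. The median log2 change was 0.074. Btg2 was the gene that fell (log2 -0.35, edgeR adjusted p = 0.0182). Fos, Fosb, Jun, Junb, Dusp1 and Egr1 had log2 changes of -0.47, -0.64, 0.078, 0.070, -0.0095 and 1.02 and were not called. Btg2 and these uncalled genes were named after their values were seen. Ier2 was at 51.6 and 53.7 CPM with Acly-E14 siRNA, against 24.1 and 24.6 CPM with control siRNA (2.16-fold, edgeR adjusted p = 0.000856), and Zfp36, an mRNA decay factor gene, rose 1.31-fold (adjusted p = 0.00624). Egr2 and Ier3 rose 1.44-fold and 1.43-fold (adjusted p = 0.0119 and 0.0156), calls that were lost without control library 1 (0.0706 and 0.0943) and, for Ier3, without Acly-E14 siRNA library 2 (0.0594).

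Among macrophage and stroma genes, the monocyte LPS co-receptor gene Cd14 rose 2.05-fold and the lineage factor gene Cebpa, a C/EBP relative of the ATF4 partners, fell by 1.18 on the log2 scale (edgeR adjusted p = 0.000842 and 0.00358). The mannose receptor gene Mrc1 had a log2 change of -0.63 and Cd68 of -0.68 (adjusted p = 0.00168 and 0.00372). Bgn, Pdgfrb, Thy1 and Tagln, all markers of fibroblasts or contractile stroma, rose 8.03-fold, 5.46-fold, 4.97-fold and 4.21-fold (highest adjusted p = 0.00182). Of the list genes, Cbs, Fgf21, Derl3, Ankrd37 and Zbtb16 had too few counts to be tested and Gcn1 was not analysed here.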
